A study of Mus musculus with 19 samples.

Results

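The levels and isoforms of 8 genes tied to Alzheimer and Parkinson disease, App, Aplp1, Aplp2, Psen2, Bace1, Apoe, Lrrk2 and Park7, were followed across the depth of the mouse primary somatosensory cortex (S1). The genes were taken by name out of 24130 Ensembl genes listed in at least 1 of 7 RNA-seq libraries, and all 8 were listed in every library. The tissue came from male C57BL/6J mice aged 56 days, untreated and with no engineered allele named in the labels. S1 was cut parallel to the surface into 6 adjacent slices, named A to F. By the labels A was mostly layers 1 to 3, B mostly layer 4, C and D mostly layer 5, E mostly layer 6 and F mostly layer 6b. Tissue of 8 mice was pooled for A and for C to F, while B was pooled by litter into B1 and B2, with 4 mice each, so that B alone had replicates (n = 2). The 12 samples of dorsal and lateral cortex were not analysed here.

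The amyloid precursor protein, encoded by App, is a membrane protein of synapses that is cut in sequence by secretases. The beta-secretase Bace1 followed by gamma-secretase, whose catalytic subunit is a presenilin such as that of Psen2, releases amyloid beta, the peptide of Alzheimer plaques, whereas a first cut by an alpha-secretase destroys that peptide. Aplp1 and Aplp2 encode relatives of App that are cut by the same enzymes and lack the amyloid beta sequence. Apoe encodes a lipid carrier that astrocytes secrete in the brain and whose human alleles alter the risk of late-onset Alzheimer disease. Lrrk2, a kinase that phosphorylates Rab proteins, and Park7, which encodes the redox-sensitive protein DJ-1, are mutated in familial forms of Parkinson disease.

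Levels are given in FPKM, fragment counts scaled for the length of the gene model and the number of mapped fragments, so that they can be set side by side between genes. The interval in parentheses after a level is the 95% interval that cufflinks gave for the estimate within that library, which leaves out how mice vary. Each library rests on an estimated 31.4 M (A) to 75.2 M (B2) mapped fragments. Of the layer markers, Rorb (layer 4) was highest in B1 and B2 (17.8 and 22.1 FPKM), Fezf2 (layer 5) in C (26.0 FPKM), and Ctgf, a marker of layer 6b, in F (167 FPKM). None of 10 layer markers was highest in A. Cux2 and Rasgrf2, markers of the upper layers, were at 37.9 and 39.9 FPKM in A and at 43.5 and 49.7 FPKM in B1, and fell with depth. Foxp2, a marker of layer 6, was at 13.2 FPKM in E and 13.9 FPKM in F. Library A stood apart from the others. Its summed level of 6 meningeal markers was 37.5 FPKM against 4.52 to 7.37 FPKM elsewhere, 3 blood markers summed to 439 FPKM against 45.5 to 69.0 FPKM, and genes of the mitochondrial genome took 21.8% of its FPKM against 5.03 to 18.2%. The sum of 9 neuron markers was lowest in A, at 1791 FPKM against 2610 to 3678 FPKM elsewhere. Of these, Rbfox3 was highest in A, and Nefl and Nefm were lowest in F. B2 had the second highest mitochondrial share (18.2%), against 7.76% in its replicate B1. The part of these differences in the results below was not tested. For the 8 genes, results that rest on A are given with and without it. Trend calls of single other genes are given on all 7 libraries only, and the trend calls of the lists are counted without A at the end.

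**Figure D1:**
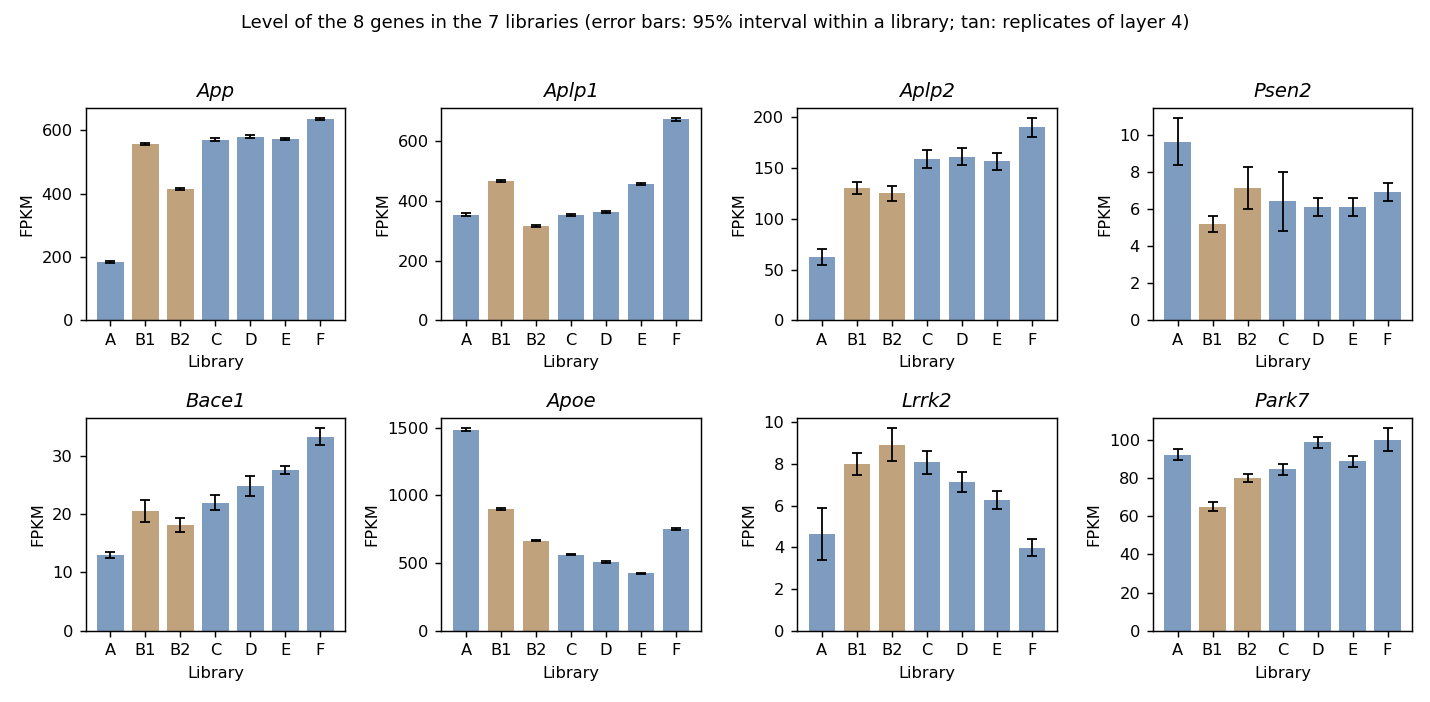
Level of each of the 8 genes (FPKM, y axis from 0) in the 7 libraries in order of depth (x axis), with the 95% interval within a library as error bars and the replicates of layer 4 in tan. App and Aplp2 are lowest in A, Bace1 climbs from 13.0 FPKM in A to 33.2 FPKM in F, Apoe falls from A to E and is higher again in F, and Lrrk2 is highest in B2, followed by C and B1.

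The precursor itself, App, was low in the most superficial slice and nearly level below it. App (ENSMUSG00000022892, mm9 chr16:84954685-85173952) was at 185 FPKM (181 to 189) in A. The replicates of layer 4 held 556 FPKM (B1) and 414 FPKM (B2), the slices of layer 5 570 FPKM (C) and 579 FPKM (D), and the deepest slices 571 FPKM (E) and 635 FPKM (631 to 638, F). The step from A to the mean of B1 and B2 was 1.39 on the log2 scale, against 0.42 between B1 and B2, and it was the only step between neighbours in the order of levels that exceeded the difference of the replicates. From B to F the level varied less than that from step to step. In the limma fit of a linear and a quadratic term of segment position to log2(FPKM + 0.1), App passed at an adjusted p of 0.0260. The linear slope alone, 0.25 ± 0.095 (SE) log2 units per segment, did not (adjusted p = 0.0951). Without library A the slope was 0.09 and the adjusted p of the trend 0.396. The trend call ended in 8 of 16 alternatives, also without B2 (adjusted p = 0.0552) or C (0.0612).

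Aplp2 (ENSMUSG00000031996, mm9 chr9:30957143-31019372), the relative of App found in most tissues, was likewise lowest in A and highest in F, at a lower level than App in every library. It was at 62.5 FPKM (55.1 to 69.9) in A and 190 FPKM (181 to 199) in F, the ends of the series. Between them it was at 130 FPKM and 125 FPKM in B1 and B2, 159 FPKM and 161 FPKM in C and D, and 157 FPKM in E. B1 and B2 differed by 0.058 on the log2 scale, a smaller difference being found in 9.94% of 11170 genes, and the steps from A to B, from B to E and from D to F all exceeded that difference with intervals that did not overlap. C, D and E had overlapping intervals. The trend passed at an adjusted p of 0.0176, while the linear slope of 0.24 ± 0.073 (SE) had an adjusted p of 0.0573. Without A the adjusted p of the trend was 0.160, with a slope of 0.12.

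Aplp1 (ENSMUSG00000006651, mm9 chr7:31220001-31230580), the relative made mainly by neurons, had a different shape, with its highest level in F and a level in A close to those of layer 5. It had a level of 354 FPKM (350 to 358) in A. Layer 4 gave 467 FPKM for B1 and 315 FPKM for B2, layer 5 gave 354 FPKM for C and 361 FPKM for D, and E and F gave 457 FPKM and 673 FPKM (668 to 677). The replicates of layer 4 differed by 0.56 on the log2 scale, more than in 75.6% of 11170 genes, and lay on either side of A, C and D. F exceeded E by 0.56, no more than B1 exceeded B2. Neither the slope (0.15 ± 0.065 SE, limma adjusted p = 0.128) nor the trend (adjusted p = 0.0706) passed, and without F the slope was 0.059. The trend passed without B1 (adjusted p = 0.00827), with B1 and B2 averaged (0.0241) and with a correction for GC content (0.0205).

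The balance between the 3 relatives differed between slices. App was at 0.522 times the level of Aplp1 in A and at 0.943 times in F. It was at 1.19 and 1.31 times in the replicates of layer 4, at 1.61 (C) and 1.60 times (D) in layer 5, and at 1.25 times in E. In this ratio the replicates were close, and the values of C and D exceed both of them, while those of A and F lie below both. App to Aplp2 varied less, from 2.96 in A to 4.27 in B1, with 3.31 in B2 and 3.34 to 3.64 in the libraries below.

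The precursors also differ in an exon that makes a Kunitz protease inhibitor domain, which neurons mostly leave out of App. These exons are shown because the isoforms below are told apart by them. Both are 168 nt, wholly coding and a multiple of 3, and both lie on the minus strand, at GRCm38 chr16:85043576-85043743 in App (exon 7 of 18 of ENSMUST00000227723) and chr9:31167561-31167728 in Aplp2 (exon 7 of 17 of ENSMUST00000072634). They were read from GENCODE M21, 5′ to 3′, and capitals mark the 114 of 168 positions (67.9%) at which the exons carry the same base.
App 168 nt: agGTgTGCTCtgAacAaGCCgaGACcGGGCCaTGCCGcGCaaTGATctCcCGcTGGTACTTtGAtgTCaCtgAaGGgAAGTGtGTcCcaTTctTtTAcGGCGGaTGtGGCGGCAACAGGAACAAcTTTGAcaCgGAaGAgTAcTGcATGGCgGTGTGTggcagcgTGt
Aplp2 168 nt: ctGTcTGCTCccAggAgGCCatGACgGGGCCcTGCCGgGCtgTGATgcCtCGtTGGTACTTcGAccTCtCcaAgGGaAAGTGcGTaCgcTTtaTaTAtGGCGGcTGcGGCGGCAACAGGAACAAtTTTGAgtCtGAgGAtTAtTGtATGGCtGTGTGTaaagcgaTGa

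In App the form without this exon was nearly the whole of the listed expression. ENSMUST00000005406 (3128 nt), which lacks it, was the single listed form of App in B1, B2, C, D, E and F. In A a longer form, ENSMUST00000074271 (3353 nt), was listed at 10.3 FPKM (8.13 to 12.6) beside 175 FPKM of the shorter form, 5.59% of the gene. Its 225 extra nt equal the 168 nt exon plus the next exon of 57 nt (GRCm38 chr16:85040251-85040307, minus strand), which is printed in lower case since nothing was compared with it. The longer model itself has no entry in GENCODE M21.
App 57 nt: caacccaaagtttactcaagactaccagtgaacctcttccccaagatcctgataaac
No listed transcript lay below 5% of the most abundant form of its locus (lowest values of 5.00 to 5.02% in the 7 libraries), so the longer form may be present in the other 6 libraries at up to that share.

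In Aplp2 the exon was in most of the listed expression, in a share that varied between libraries. The 3 forms listed in every library were ENSMUST00000072634 (3629 nt) with the 168 nt exon, ENSMUST00000079758 (3497 nt) without that exon but with one of 36 nt further downstream (GRCm38 chr9:31156190-31156225, minus strand, exon 13 of 17), and ENSMUST00000071125 (3665 nt), which has no entry in GENCODE M21 and whose length equals the form with 168 nt plus 36 nt and the form with 36 nt plus 168 nt.
Aplp2 36 nt: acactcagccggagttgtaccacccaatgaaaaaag
With ENSMUST00000071125 counted by its length as holding the exon, the share of Aplp2 FPKM with the 168 nt exon was 52.0% in A and 64.6% in F. It was 83.9% and 72.1% in the replicates of layer 4 (B1 and B2), 76.3% and 72.4% in layer 5 (C and D) and 72.6% in E. A and F were below all other libraries, and B1 and B2 lay further apart than C, D and E did. The form without the exon was at 30.0 FPKM in A, 67.4 FPKM in F, 21.0 FPKM in B1 and 34.9 FPKM in B2. The form with both exons was at 3.86 FPKM (0 to 8.95) in A and between 29.0 and 51.8 FPKM in the others.
The ratio of each form to the others was tested for a linear slope with limma over 8210 isoforms of all genes. The slopes were 0.25 ± 0.19 (SE) for ENSMUST00000071125, -0.086 ± 0.094 for ENSMUST00000072634 and -0.0094 ± 0.17 for ENSMUST00000079758, and none passed (adjusted p = 0.485, 0.629 and 0.980). Over all genes 0.0122% of isoforms passed, and 18.0% had an unadjusted p below 0.05.
By nonoverlapping intervals, Aplp2 forms changed in opposite directions in 5 of 21 pairs of libraries, and 1 of those pairs was B1 and B2. Such a change in at least 1 pair was met by 82.1% of 1990 genes with several forms of sufficient precision, and by 38.7% between B1 and B2. Aplp1 met it too, in the 6 pairs with E, where ENSMUST00000098581 (2369 nt) was listed in E alone in place of ENSMUST00000006828 (2369 nt). The models have the same length and never occurred together. A form not listed in a library was set to 0 with an interval of 0 to 0, so such an exchange meets the criterion.

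Bace1, the beta-secretase that makes the first cut toward amyloid beta, rose with depth. Bace1 (ENSMUSG00000032086, mm9 chr9:45646666-45670524) was at 13.0 FPKM (12.5 to 13.6) in A. The replicates of layer 4 held 20.6 FPKM (18.7 to 22.4, B1) and 18.1 FPKM (17.0 to 19.2, B2), the slices of layer 5 21.9 FPKM (C) and 24.7 FPKM (D), and the deepest slices 27.5 FPKM (E) and 33.2 FPKM (31.7 to 34.7, F). Each segment lay above the one before it, and the level in F was 2.55 times that in A. Only the steps from A to B (0.57 on the log2 scale) and from E to F (0.27) had separate intervals and exceeded the 0.18 between B1 and B2. The linear slope was 0.23 ± 0.047 (SE) log2 units per segment and passed with limma at an adjusted p of 0.0191. Bace1 was the single gene of the 8 to pass this test, which 18.7% of 11409 genes passed, 16.1% by rising and 2.63% by falling. The trend passed too (adjusted p = 0.0106), but 7 of 16 alternatives ended the linear call at the same sign, among them leaving out D (adjusted p = 0.0525), E (0.0646) or F (0.0633), and scaling to the median of ratios (slope 0.13, 0.0737). Without A the slope was 0.19 (adjusted p = 0.0258) and the trend did not pass (0.0570), and without A and B2 the slope was 0.17 (adjusted p = 0.0696). Markers of oligodendrocytes, the cells that make myelin, moved with depth as well. All 12 rose, and their summed level was 344 FPKM in A, 875 and 890 FPKM in B1 and B2, 1716 FPKM in C, 2298 FPKM in D, 4268 FPKM in E and 13001 FPKM in F. Their part in the rise of Bace1, in the high level of Aplp1 in F and in the rising genes of the pathway lists was not tested.

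Bace1 had 2 listed forms, which differ by an exon of 102 nt in the protease domain that is shown because only the longer form has it. ENSMUST00000034591 (4097 nt) holds it and ENSMUST00000078111 (3995 nt) lacks it. The exon is exon 6 of 9, on the plus strand at GRCm38 chr9:45858400-45858501. Capitals mark the 12 nt that encode the motif around a catalytic aspartate of aspartic proteases (aspartate, serine or threonine, glycine, serine or threonine), found by translating the exon in its annotated frame.
Bace1 102 nt: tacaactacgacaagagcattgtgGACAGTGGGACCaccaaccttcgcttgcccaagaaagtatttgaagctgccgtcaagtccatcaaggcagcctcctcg
The full form was at 13.0 FPKM in A, 13.5 FPKM in B1 and 30.5 FPKM in F. The form without the exon was listed at 7.10 FPKM in B1 and 2.22 FPKM in B2, at 1.53 and 4.78 FPKM in C and D and at 2.66 FPKM in F, and was not listed in A and E. Its share was 34.5% in B1 and 12.3% in B2, a wider gap between replicates than among the other 5 libraries (0 to 19.3%). The ratio of the full form to the short one had a slope of 0.15 ± 0.57 (SE) that did not pass (limma adjusted p = 0.903). In A and E the short form was set to 0, so the ratio there rests on the 0.1 FPKM added to both sides. Forms below 5% of the main form were not listed, so a share of 0 is not a measured absence.

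Psen2, which encodes a presenilin, was the rarest of the Alzheimer genes and had its highest gene level in A. Psen2 (ENSMUSG00000010609, mm9 chr1:182157135-182186431) was at 9.65 FPKM (8.37 to 10.9) in A and 6.94 FPKM in F, the ends of the series. Between them it was at 5.19 FPKM (4.75 to 5.63) and 7.15 FPKM (6.00 to 8.29) in B1 and B2, 6.45 FPKM and 6.12 FPKM in C and D, and 6.10 FPKM in E. Only A was set off from the next segment in the order, by 0.48 on the log2 scale against 0.46 between B1 and B2. Neither the slope (-0.052 ± 0.064 SE, limma adjusted p = 0.566) nor the trend (adjusted p = 0.225) passed, and without A the slope was 0.029. Without B1 the trend passed (adjusted p = 0.0289).

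The coding form of Psen2 ran the other way from the gene. This main protein-coding form, ENSMUST00000111108 (1997 nt), had a level of 2.46 FPKM (1.95 to 2.98) in A. Layer 4 gave 5.19 FPKM for B1 and 3.32 FPKM (2.65 to 3.99) for B2, layer 5 gave 5.03 FPKM for C and 6.12 FPKM for D, and E and F gave 6.10 FPKM and 6.94 FPKM (6.43 to 7.44). It was lowest in A and highest in F, with B2 next to A. The rest of the gene level in A was ENSMUST00000130711 (1170 nt), annotated as a processed transcript without a reading frame, at 7.19 FPKM (6.17 to 8.20), or 74.5% of the gene. It was also listed at 3.50 FPKM in B2 (49.0%) and 0.658 FPKM in C (10.2%), and not in B1, D, E and F. The libraries with most of it, A and B2, are those with the highest mitochondrial share, and its part in this was not tested. The ratio of the coding form to the others had a slope of 1.39 ± 0.47 (SE) log2 units per segment, with an unadjusted p of 0.0229 in limma and an adjusted p of 0.258. In B1, D, E and F no other form was listed, so the ratio there rests on the 0.1 FPKM added to both sides. The size of this slope therefore depends on that constant.

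**Figure D2:**
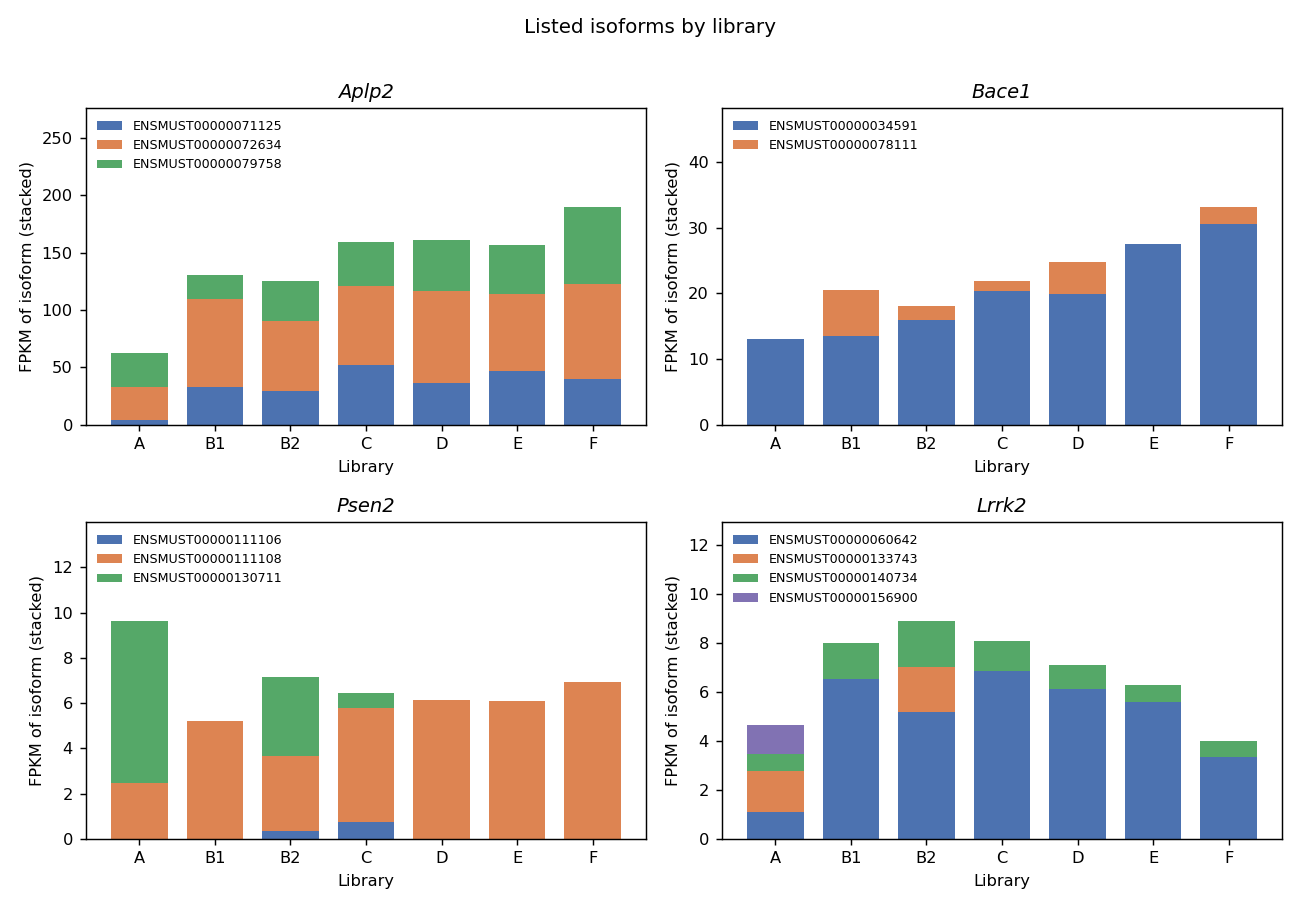
FPKM of each listed isoform (stacked bars, y axis) of Aplp2, Bace1, Psen2 and Lrrk2 in the 7 libraries (x axis). In Psen2 the processed transcript ENSMUST00000130711 makes up 74.5% of the level in A and 49.0% in B2, and in Lrrk2 the full-length ENSMUST00000060642 makes up 24.0% of the level in A.

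Other genes of the secretase pathway include the enzymes of the alpha and gamma cuts. Of 10 genes for secretases and gamma-secretase subunits, 9 were precise enough to test, 4 rose with depth, none fell, and 6 passed the trend. Over all genes 16.1% rose, 2.63% fell and 43.5% passed the trend. The median slope was 0.17, against 0.093 over all genes tested. Adam10, the main alpha-secretase of neurons, was at 4.92 FPKM in A. The replicates of layer 4 held 12.3 FPKM (B1) and 13.0 FPKM (B2), the slices of layer 5 16.1 FPKM (C) and 20.3 FPKM (D), and the deepest slices 25.2 FPKM (E) and 26.4 FPKM (F). Its slope of 0.41 ± 0.08 (SE) passed with a limma adjusted p of 0.0169. Aph1b, a subunit of gamma-secretase, ran from 1.08 FPKM in A to 3.63 FPKM in E (slope 0.28, adjusted p = 0.0403), and lost the call in 12 of 16 alternatives, without A among them (slope 0.18, adjusted p = 0.0938). Ncstn, named after its values were seen, binds the substrate of gamma-secretase and ran from 9.98 FPKM in A to 22.8 FPKM in F (slope 0.21, adjusted p = 0.0350), a call lost in 9 of 16, also without A (0.0563). Psenen, the smallest subunit, had a slope of -0.18 that did not pass (adjusted p = 0.210).
Of 12 partners and trafficking factors of App, 11 were listed, 10 were tested, 1 rose and none fell, beside 16.1% and 2.63% over all genes. The trend was passed by 5 of the 10, beside 43.5% over all genes. The rising gene was Picalm, a clathrin adaptor of endocytosis, with 7.56 FPKM in A and 35.8 FPKM in F (slope 0.38, adjusted p = 0.0235). Its slope was 0.25 without A, and the call ended in 5 of 16 alternatives, among them without D (adjusted p = 0.0540), E (0.0721) or F (0.0508). Of 4 proteases that degrade amyloid beta, 2 were tested and 1 rose: Ide, insulin-degrading enzyme, from 3.83 FPKM in A to 13.5 FPKM in F (slope 0.32, adjusted p = 0.00943). Of the tau gene Mapt and 3 genes of tau kinases, none passed the linear test, with slopes from -0.093 to 0.036. Mapt alone passed the trend (limma adjusted p = 0.0199), at 219 FPKM in A, 107 FPKM in D and 155 FPKM in F. Of 4 microglial risk genes 1 was tested (Tyrobp, slope 0.0045), and it passed neither test.

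Apoe was the most abundant of the 8 genes, with rank 22 by mean FPKM among 11409, and its level was lower in each slice from the surface down to layer 6. Apoe (ENSMUSG00000002985, mm9 chr7:20281622-20284401) was at 1485 FPKM (1474 to 1496) in A and 751 FPKM (743 to 758) in F, the ends of the series. Between them it was at 898 FPKM and 665 FPKM in B1 and B2, 563 FPKM and 507 FPKM in C and D, and 424 FPKM (418 to 429) in E. It was 3.50 times as high in A as in E, and 1.77 times as high in F as in E. The intervals of all 21 pairs of libraries were apart, but B1 and B2 differed by 0.43 on the log2 scale, and only the step from A to B, 0.93, was larger than that among neighbours in the order of levels. A single form, ENSMUST00000003066 (1108 nt), was listed.
The trend passed with limma at an adjusted p of 0.00871, the lowest of the 8 genes, while the slope of -0.21 ± 0.10 (SE) did not pass (adjusted p = 0.156), with F above D and E. Without F the slope was -0.41 with an adjusted p of 0.0498. Without A the slope was -0.086 and the adjusted p of the trend 0.135.

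The summed level of markers of astrocytes, the cells that make most apolipoprotein E in brain, varied less between libraries than Apoe. All 11 astrocyte markers were above 0.1 FPKM in every library, and their sum was between 811 FPKM in E and 1070 FPKM in F, with 892 FPKM in A. Singly, 3 of the 11 had a larger ratio of highest to lowest level than the 3.50 of Apoe. Gfap, a filament protein of astrocytes, was at 34.4 FPKM in A, 4.42 FPKM in C and 126 FPKM in F, and so was high at both ends as Apoe was. Aqp4 and Gja1 were lowest in A and highest in F (4.95 to 27.7 FPKM and 16.6 to 60.0 FPKM). Of the 11, Aqp4 passed the linear test by rising. Aldoc and S100b were highest in A, lowest in E and higher again in F, as Apoe was. Aldoc was at 421, 266 and 296 FPKM in these libraries, and S100b at 135, 49.0 and 83.4 FPKM. Slc1a2 was lowest in A (149 FPKM) and highest in F (315 FPKM), and Slc1a3, Gjb6, Fgfr3 and Acsbg1 were lowest in A too. Aldoc and Slc1a2 had the highest levels of the 11 in every library, so the sum rests largely on them. All 11 microglial markers were detected in every library, with sums of 96.4 FPKM in B2 to 186 FPKM in F and 130 FPKM in A. Of these markers 5 rose with depth and none fell, beside 16.1% and 2.63% of all genes, and Adgre1 and Itgam were not tested. The highest level was in F for 7 of the 11 and in A, as for Apoe, for 3: C1qa, C1qb and Aif1. C1qa was at 44.2 FPKM in A and 30.1 FPKM in F, and Aif1 at 7.89 and 4.14 FPKM. C1qa and C1qb passed the trend.
Markers of the meninges and of blood were high in A, where Apoe was highest. Of 6 meningeal markers 5, and all 3 blood markers, were highest in A, and none of them was at 0 in any library. Markers of vessels were divided. Mural markers summed to 90.5 FPKM in A against 25.0 to 35.1 FPKM elsewhere, with Acta2 and Vtn highest in A and Pdgfrb lowest there (1.97 FPKM). Endothelial markers summed to 69.4 FPKM in A against 37.0 to 50.3 FPKM, of which Cldn5 made up 51.0 FPKM in A, while Pecam1, Cdh5, Tek and Slco1a4 were lowest in A. The part of these cells in the level of Apoe was not tested, and in pooled tissue fewer cells of a type and less RNA per cell cannot be told apart.

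**Figure D3:**
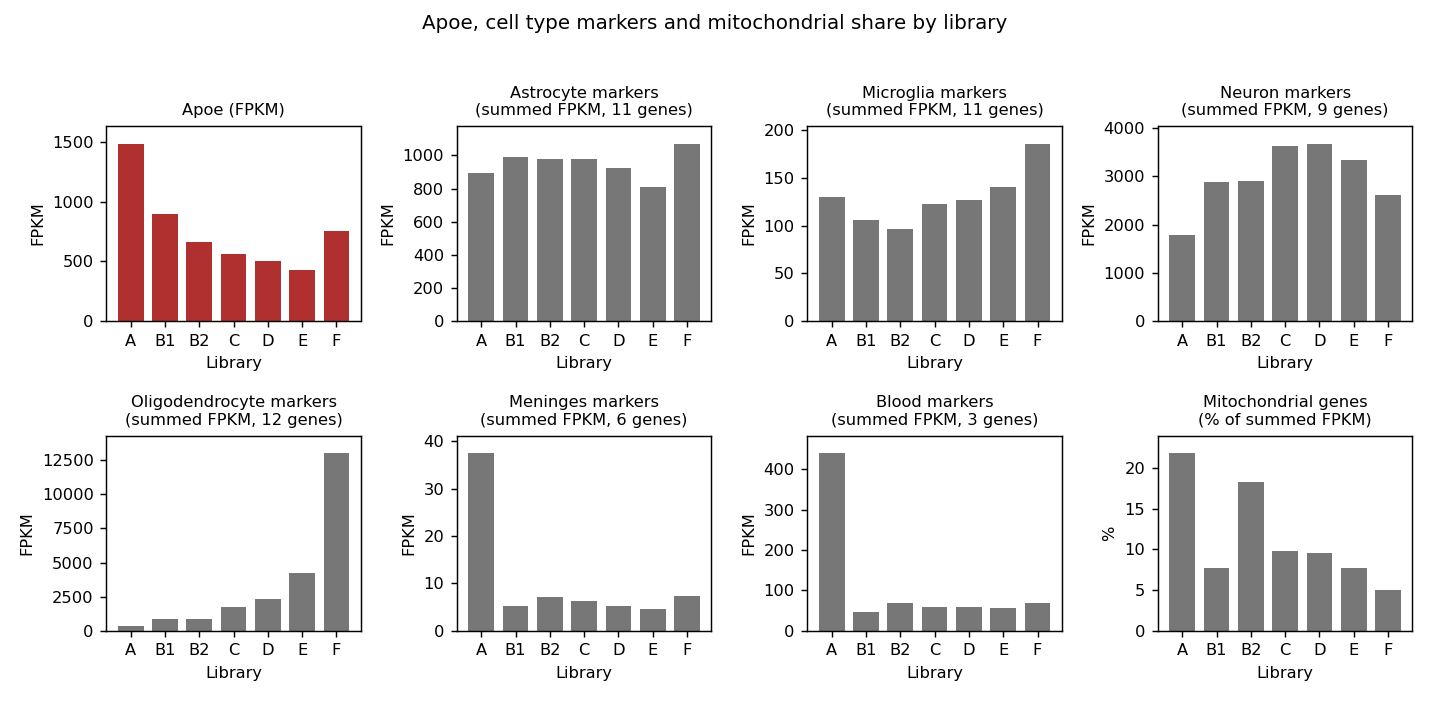
FPKM of Apoe (red), summed FPKM of marker lists for 6 cell types, and the mitochondrial percentage of all FPKM (y axes from 0) in the 7 libraries (x axis). The sum of astrocyte markers, whose single genes differ in direction, stays between 811 and 1070 FPKM. Apoe runs from 1485 FPKM in A to 424 FPKM in E, and the sums of meningeal and blood markers are highest in A.

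Of 9 receptors and partners of apolipoprotein E, 8 were tested, 3 rose and none fell, beside 16.1% and 2.63% of all genes. The trend was passed by 4 of the 8, beside 43.5% of all genes. Abcg1, a cholesterol exporter, ran from 7.45 FPKM in A to 22.6 FPKM in F (slope 0.24, adjusted p = 0.0481) and lost the call in 12 of 16 alternatives. Lrp8, named after its value was seen, is a receptor for apolipoprotein E and reelin (5.35 FPKM in A, 11.3 FPKM in F, slope 0.18, adjusted p = 0.0492), and its call ended in 14 of 16, without A among them (0.0911). Clu, a second abundant apolipoprotein, was at 330 to 419 FPKM in A to E and 715 FPKM in F. Its slope of 0.13 did not pass (adjusted p = 0.227), but its trend did (limma adjusted p = 0.0144).

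Lrrk2 had its highest level in B2, one of the replicates of layer 4, while the other, B1, was just below C of layer 5. Lrrk2 (ENSMUSG00000036273, mm9 chr15:91503606-91646551) was at 4.64 FPKM (3.41 to 5.87) in A. The replicates of layer 4 held 7.99 FPKM (7.48 to 8.51, B1) and 8.93 FPKM (8.14 to 9.71, B2), the slices of layer 5 8.08 FPKM (C) and 7.12 FPKM (D), and the deepest slices 6.29 FPKM (E) and 3.99 FPKM (3.57 to 4.41, F). No neighbours in the order of levels had separate intervals, and F lay below every library but A by them. The slope of -0.093 ± 0.087 (SE) did not pass (limma adjusted p = 0.444), whereas the trend, which allows a peak, passed at 0.0222. Without A the decline alone passed, with a slope of -0.23 and an adjusted p of 0.0377, and the trend passed at 0.0391. Without F the trend had an adjusted p of 0.130 and the slope was 0.033, and without C or E the trend was at 0.0605 and 0.0522.

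Most of the low level in A was not the full-length transcript. ENSMUST00000060642 (8275 nt), which encodes the whole kinase, was at 1.12 FPKM (0.964 to 1.27) in A and 3.35 FPKM (3.14 to 3.55) in F, the ends of the series. Between them it was at 6.54 FPKM and 5.18 FPKM in B1 and B2, 6.88 FPKM and 6.13 FPKM in C and D, and 5.61 FPKM in E. Its interval in A lay below those of the other 6 libraries, and C had its highest value. It made up 24.0% of the gene in A and 58.1% in B2, against 81.8 to 89.2% in B1 and in C to F. The remainder was 3 processed transcripts: ENSMUST00000133743 (1.68 FPKM in A and 1.86 in B2, not listed elsewhere), ENSMUST00000156900 (1.18 FPKM in A alone) and ENSMUST00000140734, listed in every library at 0.647 to 1.89 FPKM. As in Psen2, A and B2 held the most of these forms. The ratio of the full-length form to the others had a slope of 0.64 ± 0.25 (SE), an unadjusted p of 0.0389 in limma and an adjusted p of 0.275.

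Park7 varied least of the 8 genes. Park7 (ENSMUSG00000028964, mm9 chr4:150271242-150284035) had a level of 92.2 FPKM (89.2 to 95.2) in A. Layer 4 gave 64.9 FPKM (62.6 to 67.2) for B1 and 80.1 FPKM (78.0 to 82.1) for B2, layer 5 gave 84.4 FPKM for C and 98.7 FPKM for D, and E and F gave 88.7 FPKM and 100.1 FPKM (94.2 to 106). The highest level was 1.54 times the lowest, and no step between neighbouring levels exceeded the difference of 0.30 on the log2 scale between B1 and B2. Neither the slope (0.064 ± 0.053 SE, limma adjusted p = 0.388) nor the trend (adjusted p = 0.469) passed, and none of 16 alternatives gave a call. A shorter coding form, ENSMUST00000105676 (582 nt), was listed in F alone, at 15.5 FPKM (11.3 to 19.7) or 15.5% of the gene.
The level of Park7 was 8.12 (B1) and 8.97 times (B2) that of Lrrk2 in layer 4, 10.5 (C) and 13.9 times (D) in layer 5, and 14.1 (E), 19.9 (A) and 25.1 times (F) elsewhere. By these gene levels the ratio was close in the replicates and lower in layer 4 than in any other segment. The full-length form made up 81.8% of Lrrk2 in B1 and 58.1% in B2. That form was at 6.54 FPKM in B1, 5.18 FPKM in B2, 6.88 FPKM in C, 1.12 FPKM in A and 3.35 FPKM in F. Against it alone the replicates would lie further apart. B2 would then lie above C, and A above F, so the order of segments would not hold.

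Of 23 other genes named in Parkinson disease or as substrates and relatives of Lrrk2, 22 were listed, 18 were tested, 3 rose and none fell, and 8 passed the trend, close to the shares over all genes (16.1%, 2.63% and 43.5%). Vps35, a subunit of the retromer that returns cargo from endosomes, was at 10.7 FPKM in A. The replicates of layer 4 held 25.8 FPKM (B1) and 31.1 FPKM (B2), the slices of layer 5 43.9 FPKM (C) and 52.2 FPKM (D), and the deepest slices 55.1 FPKM (E) and 53.0 FPKM (F). Its slope of 0.40 ± 0.099 (SE) had a limma adjusted p of 0.0334. Rab10, a substrate of Lrrk2, ran from 13.8 FPKM in A to 56.6 FPKM in F (slope 0.31, adjusted p = 0.0465), with 46.0 FPKM in D. Fbxo7, named after its value was seen, is a subunit of a ubiquitin ligase and ran from 5.93 to 17.5 FPKM (slope 0.27, adjusted p = 0.0191, lost in 4 of 16 alternatives). The call of Vps35 ended in 8 of 16 alternatives and that of Rab10 in 13, without A among both (adjusted p = 0.0542 and 0.0666). Atp13a2, a lysosomal transporter, had the most negative slope of the list, -0.19, which did not pass (adjusted p = 0.0606). Its trend passed (limma adjusted p = 0.0356), with 87.4 FPKM in A and 38.3 FPKM in E. Sncb, which encodes beta-synuclein, was at 278 to 453 FPKM, with a slope of -0.039 (adjusted p = 0.653).

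**Figure D4:**
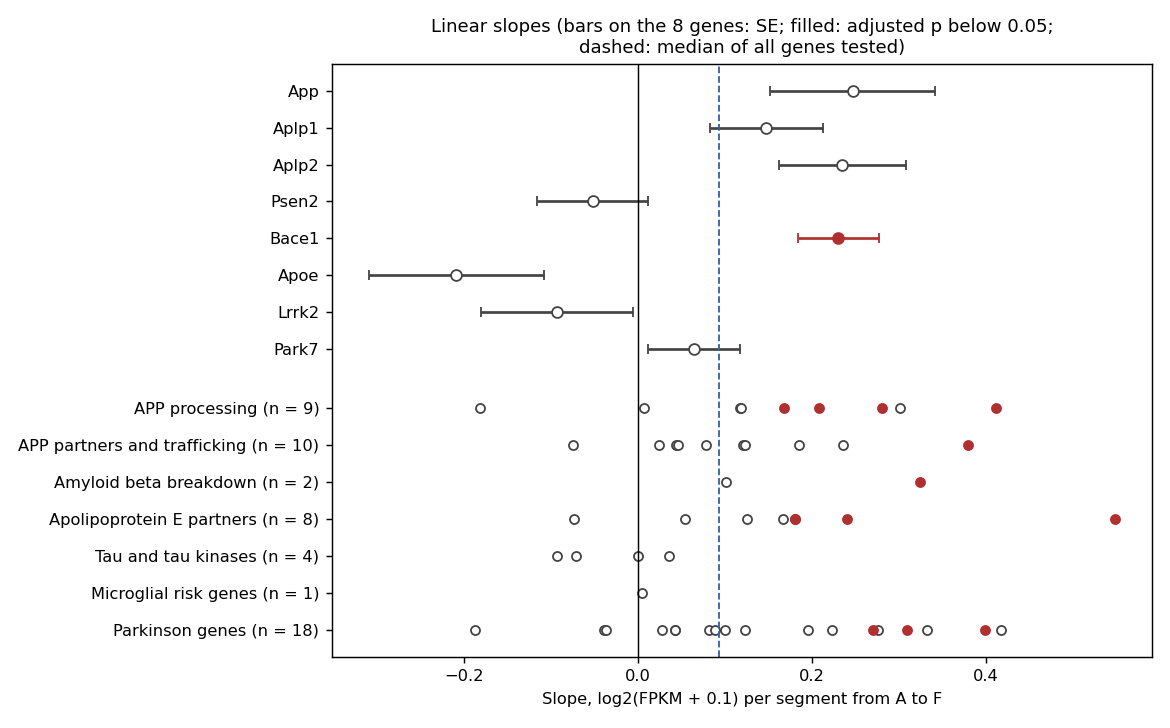
Linear slope of each of the 8 genes with its SE (upper rows) and of each tested gene of the 7 pathway lists (lower rows), in log2(FPKM + 0.1) per segment from A to F (x axis). Filled points passed at an adjusted p below 0.05, and the dashed line is the median of all genes tested, 0.093. Bace1 is the single filled point among the 8, and all filled points of the lists lie above 0.

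Across the 8 genes, 1 of 8 passed the linear test, against 18.7% of all genes, and 5 of 8 (App, Aplp2, Bace1, Apoe and Lrrk2) passed the trend, against 43.5%. With 6 unordered segments, which leave 1 degree of freedom, none of the 8 passed and none of 11409 genes did, while 18.5% had an unadjusted p below 0.05. The median slope of the 8 was 0.11 and 5 of 8 slopes were above 0, beside a median of 0.093 and 70.6% over all genes. Over the 7 pathway lists, 12 of 52 tested genes rose and none fell, beside 16.1% and 2.63% of all genes. Scaling to the median of ratios raised the level of a typical gene in A by 0.38 and lowered it in F by 0.19 on the log2 scale. On that scale none of the 8 passed the linear test, Apoe and Lrrk2 passed the trend, and the slope of Park7 was -0.037. Of the genes of the lists, 4 rose and 2 fell, beside 1108 of 11409 genes called in either direction, 51.8% of them by rising.

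**Figure D5:**
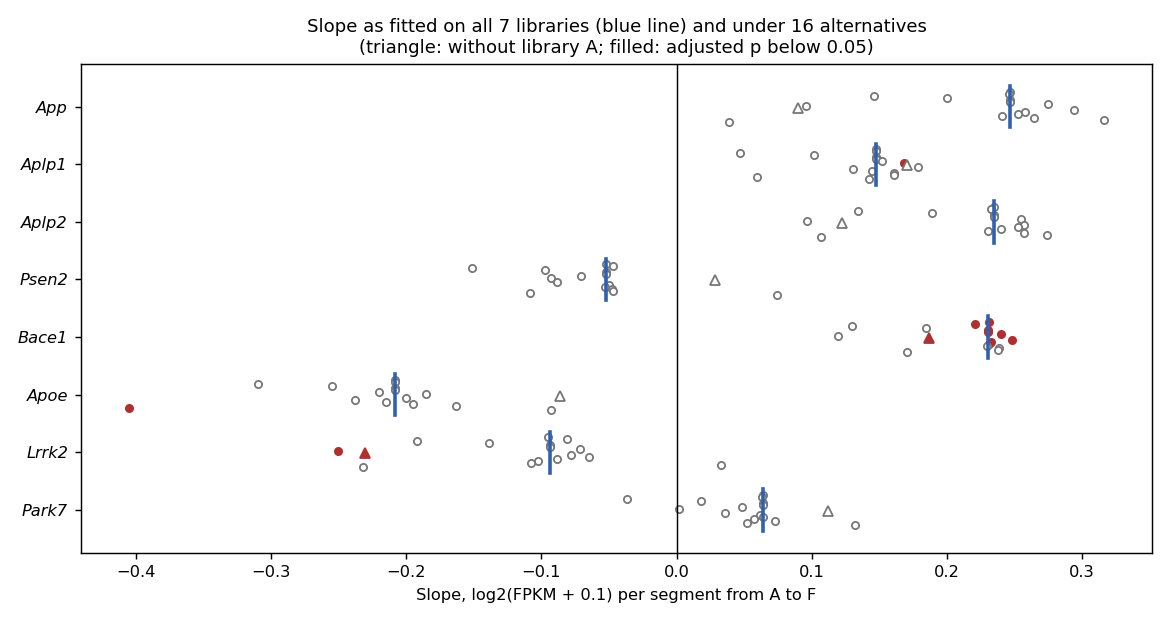
Linear slope of each of the 8 genes in log2(FPKM + 0.1) per segment (x axis) as fitted on all libraries (blue line) and in 16 alternatives (points, filled where the adjusted p was below 0.05, triangle without library A). The slopes of App, Aplp1, Aplp2 and Bace1 stay above 0 in all 16 and that of Apoe below 0, whereas Psen2, Lrrk2 and Park7 have points on either side.

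The highest level was in F for App, Aplp1, Aplp2, Bace1 and Park7, in A for Psen2 and Apoe, and in B, by the mean of B1 and B2, for Lrrk2. Over all genes tested, 31.9% were highest in F, 20.9% in A and 7.98% in B. With other scalings Park7 was highest in A (median of ratios) or D (FPKM without mitochondrial genes), and without B2 Lrrk2 was highest in C.
The intervals of 2 libraries did not overlap in 134 of 168 comparisons of the 8 genes, from 9 of 21 pairs for Psen2 to 21 of 21 for Apoe, beside 68.7% of all comparisons of 11409 genes. Between B1 and B2 they were apart in 5 of 8 genes (66.4% of all genes): App, Aplp1 and Apoe were higher in B1, and Psen2 and Park7 in B2. Between C and D, both of layer 5, 4 of 8 were apart (34.3% of all genes), and between E and F 7 of 8 (53.8%), with Lrrk2 lower in F and the other 6 higher. Between A and F 6 of 8 were apart (85.2%), App, Aplp1, Aplp2 and Bace1 higher in F and Psen2 and Apoe higher in A.

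The patterns of the members were also compared with each other and with 10143 genes of at least 1 FPKM, by Pearson's r of log2(FPKM + 0.1) over the 7 libraries, which share 1 series of depth and the low or high values of A. App and Aplp2 were most alike (r = 0.97, and 0.81 without A), followed by Aplp2 and Bace1 (0.93, and 0.92 without A). Lrrk2 and Bace1 were at -0.18 with all libraries and at -0.95 without A. App and Apoe were at -0.78 with all libraries and -0.085 without A.
The genes most like App were Cdkn1b, Ntrk2 and Lysmd1 (r of 0.997 to 0.998), those most like Aplp2 were Stt3b, Eaf1 and Pggt1b (0.997 to 0.998), and those most like Bace1 were Ganab, Nedd9 and Mfsd14b (0.997 to 0.999). Srcin1, Lpcat3 and Vat1 were most like Aplp1 (0.987 to 0.992). Such values were common for 3 of the members: 2117 genes reached 0.9 with App, 2557 with Aplp2 and 1789 with Bace1, against 128 with Aplp1.
Pbxip1, Prelp and Cdk2ap2 were most like Apoe (0.982 to 0.995), and 157 genes reached 0.9. Pbxip1 was at 19.2 FPKM in A, 6.97 FPKM in E and 11.1 FPKM in F, so that it shared the low value in E as well as the high value in A. Nrn1, Ucp3 and Epha4 were most like Lrrk2 (0.988 to 0.992, with 87 genes at 0.9). Nrn1 was at 101 FPKM in A, 180 in B1, 191 in B2 and 77.2 FPKM in F, and Epha4 at 22.5, 41.9, 44.3 and 17.8 FPKM in the same libraries.
Genes close to Psen2 were Rps15-ps2 (0.993) and Rnf31 (0.992), and those closest to Park7 were Hspd1-ps3, Ahcy and Gm6275 (0.965 to 0.968). Rps15-ps2 and Hspd1-ps3 are named as pseudogenes, whose reads cannot be told apart with certainty from those of their parent genes.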

How the data were processed

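Polyadenylated RNA of the 7 S1 libraries was sequenced as paired ends. Per the methods and labels, the authors mapped reads to mm9 with TopHat 1.0.13 and estimated FPKM of Ensembl release 57 genes and transcripts with Cufflinks 0.8.3, with 95% intervals, and these FPKM were deposited on a linear scale. The fraction values deposited by the authors give the abundance of a transcript relative to the main transcript of its locus, and the deposited coverage is the estimated read coverage of a transcript. The number of mapped fragments was taken from the ratio of coverage to FPKM, for fragments of 2 ends with 50 nt each.

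A gene without a line in a library was set to 0. Genes listed at several places were summed, and 46452 of 46931 transcripts were matched to their gene by position or identifier. Symbols came by identifier from GENCODE M21 (22021 of 24130 genes), which was also the source of exon sequences, on GRCm38. The mm9 positions are those of the files and were not converted.

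Tests were limma 3.58.1 (R 4.3.3) on log2(FPKM + 0.1) over 11409 genes whose widest interval was at most 50% of their mean FPKM, with Benjamini-Hochberg adjustment over all genes and a threshold of 0.05. A linear term of segment position (5 residual degrees of freedom) and a linear plus a quadratic term (4) were fitted, and isoform ratios were fitted likewise over 8210 transcripts. Slopes are on the log2(FPKM + 0.1) scale, which understates the change of low genes. Ratios and log2 steps between levels were taken from FPKM with nothing added. Libraries other than B are single pools, so p-values rest on the deviation from the fitted line and on the difference of B1 and B2. Intervals cover the error of the estimate within a library only. On simulated data over 11409 genes the linear test recovered 0%, 32%, 74% and 96% of genes with slopes of 0.1, 0.2, 0.4 and 0.8, and the trend 0%, 2%, 62% and 92%.

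The 8 genes, the pathway and marker lists and the tests were chosen with earlier results of these data known. Named were the 8 genes and their isoforms, the 3 genes most like each, and up to 2 called genes per direction with the steepest slope in each list, other names being given where a count was 5 or fewer. Psenen, Atp13a2 and Sncb were named outside these rules. In 84 alternatives the settings varied were the pseudocount, scaling, filter, GC content, interval width and libraries, and 4 more were added after the data were seen (without A and B2). Some genes that these rules would name are not reported here by name.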

Additional observations from a re-analysis of the deposited data

How the results depend on the processing

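Of the 8 genes, 1 passed the linear test as reported. None passed after rescaling by the median of ratios, after rescaling to the sum without mitochondrial genes (0 in each) or without A and B2 (0), and 2 passed with a correction for GC content (Aplp1 and Lrrk2). Leaving out 1 library at a time gave 0 to 2. The trend was passed by 5 genes as reported, 2 with the median of ratios, 3 with the GC correction, 0 with 6 unordered segments, 0 without A and B2, and 1 to 7 with 1 library left out. Without A only Lrrk2 passed it, and without B1 Aplp1 and Psen2 passed it as well. The lists had 12 rising genes as reported, 4 with either rescaling, 5 with the GC correction, 2 without A and B2, and 3 to 11 with 1 library left out. By the trend the lists had 25 called genes as reported and 6 without A. The trend calls of Mapt, Clu and Atp13a2 are thus not shown to hold without A. The slope of Park7 was -0.037 with the median of ratios, that of Psen2 ran from -0.11 (without F) to 0.029 (without A) with 1 library left out and was 0.075 without A and B2, and that of Lrrk2 ran from -0.23 (without A) to 0.033 (without F). The cause was not tested in any of these. Intervals were apart in 79.8% of comparisons of the 8 genes as reported, in 49.4% with intervals widened 3 times and in 75.8 to 85.0% with 1 library left out. Isoforms in opposite directions were found in 2 genes as reported, in 1 with intervals widened 2 or 3 times, in 1 to 2 with 1 library left out and in 7 with all listed isoforms, which drops the limit on precision. Over all genes, 1633 met the criterion as reported and 6838 with all listed isoforms, the latter given without a share. The 7 are all of the 8 genes with more than 1 listed form. Forms not listed in a library were set to 0 with an interval of 0 to 0. A form listed in only some libraries can therefore count as changed, and the 7 are not read as a result about these genes. With all listed isoforms, Aplp2, Psen2, Bace1 and Lrrk2 also met the criterion between the replicates B1 and B2. No isoform ratio of the 8 genes passed in any of 13 alternatives.
Over all genes, linear calls fell from 2132 to 1108 with the median of ratios, 837 without mitochondrial genes, 1190 with the GC correction and 410 without A and B2, with 85.9%, 51.8%, 65.2%, 54.0% and 71.2% of them rising, in this order after the reported value. They fell to 950 without B2, 812 without D, 541 without E and 668 without F. Trend calls fell from 4968 to 1147 without A, 3295 without C and 637 without A and B2.
No paired analysis was possible because only segment B has replicates and each other segment is a single pool. Per the methods, all segments came from the same 8 mice, so the libraries are not independent samples of animals. Some minor isoforms were imprecise, as the intervals of ENSMUST00000111106 of Psen2 in B2 and C and of ENSMUST00000071125 of Aplp2 in A reach 0. The part of depth in this was not tested, and B2 had the most estimated fragments (75.2 M). A slope under 0.2 log2 units per segment could rarely be called at this design, as the simulated data show.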
